A study of Mus musculus with 2 samples.

Results

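The genes described here encode the proteins of the mitochondrial ribosome. They were chosen by symbol alone, as every gene named Mrpl or Mrps followed by a number, and they comprise 76 of the 23234 genes measured. Of these, 47 carry large subunit names (Mrpl) and 29 carry small subunit names (Mrps). RNA-seq had been performed on round spermatids, haploid germ cells formed by meiosis, from mice of the C57BL/6 strain. The series held 1 wild-type library and 1 library labelled Epc-dKO, made from mice deficient for Epc1 and Epc2, whose products belong to the NuA4/TIP60 complex, an acetyltransferase of histones. How the deficiency was produced, and the age and any pooling of the mice, were not given in the sources used here. Since each genotype has 1 library, every difference below lacks a replicate check and carries no p-value.

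The mitochondrial ribosome translates the few messenger RNAs of the mitochondrial genome, all of which encode subunits of the respiratory chain and ATP synthase. Its RNAs are made inside the organelle, whereas its proteins are encoded in the nucleus, translated in the cytosol and imported. Many of these proteins descend from bacterial ribosomal proteins and others are found only in mitochondrial ribosomes. During spermiogenesis the mitochondria of round spermatids are later arranged along the midpiece of the sperm tail.

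Values are FPKM, fragments per kilobase of transcript and per mapped total, so levels can be compared between genes. A log2 ratio compares Epc-dKO with wild type after 1 was added to both FPKM values. Genes whose FPKM averaged at least 1 are called expressed, and the words rose and fell are kept for ratios past 2-fold. The added 1 understates the change of low genes, so a ratio without it is also given for the genes the results turn on.

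The 2 libraries were of similar depth. Among low genes the linear ratio of the FPKM values repeated exactly: 504 genes shared the value 0.905, within 0.02%, the ratio taken here as that of 1 fragment in each library. On that reading the library labelled Epc-dKO was scaled by a mapped total 1.10 times that of the wild-type library. The totals were estimated at about 36800000 fragments for wild type and 40700000 for Epc-dKO, under the assumption that the commonest smallest step is 1 fragment. Epc1 stood at 11.4 FPKM in wild type against 13.6 in the library labelled Epc-dKO, and Epc2 at 7.12 against 10.5, so neither targeted gene was lower. A gene-level value does not show which exons were read, so it does not check the label. The cause of these values was not tested. Markers of round spermatids were abundant: all 20 listed were expressed, with a median of 69.5 in wild type and 81.4 in Epc-dKO. The haploid marker Prm2, for protamine 2, rose from 82.8 to 675. Some markers of other cells were also expressed: 14 of 20 spermatogonial, 14 of 15 spermatocyte, 8 of 9 Leydig, 4 of 7 peritubular, 3 of 13 Sertoli and 1 of 10 blood and endothelial genes. Over all genes 10438 of 23234 were expressed, a higher share than in the Sertoli list and in the blood and endothelial list. The hemoglobin genes Hba-a1, Hba-a2 and Hbb-b1 were listed at 0, but so was Lars2, the mitochondrial leucyl-tRNA synthetase gene that every cell with mitochondria uses, so a listed 0 may be a failed estimate.

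The promoters of several members are shown first, because they place the genes beside their neighbours and carry the short motifs counted further on. They were taken from RefSeq on the build GRCm38.p6, for the bases upstream of the most upstream start, and each was ended where an exon of another gene begins. The FPKM table itself was made on mm9 and gives no coordinates. Capitals mark a match to 1 of 3 motifs on either strand: GCGC, any 2 bases and again GCGC for NRF1, CCGGAAG for ETS factors such as GABPA, and AAGATGG for YY1. All 3 factors are known to act at promoters of nuclear genes for mitochondrial proteins.

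Mrpl2, the only expressed member that passed the 2-fold rule, lies head to head with Klc4, and the 198 bases between their annotated exons are at chr17:46646023-46646220 on the plus strand.
Mrpl2: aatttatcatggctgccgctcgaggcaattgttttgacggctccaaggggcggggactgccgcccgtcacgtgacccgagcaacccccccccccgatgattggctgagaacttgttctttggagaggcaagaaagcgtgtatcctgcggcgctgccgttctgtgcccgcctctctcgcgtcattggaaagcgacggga
Mrps27, the small subunit member with the lowest ratio, lies head to head with Ptcd2, with 80 bases between them at chr13:99344706-99344785 on the plus strand.
Mrps27: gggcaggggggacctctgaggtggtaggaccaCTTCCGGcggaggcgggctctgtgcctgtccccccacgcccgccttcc
Mrpl52, the large subunit member with the lowest ratio after Mrpl2, has a YY1 and an ETS match in the 250 bases at chr14:54426659-54426908 on the plus strand.
Mrpl52: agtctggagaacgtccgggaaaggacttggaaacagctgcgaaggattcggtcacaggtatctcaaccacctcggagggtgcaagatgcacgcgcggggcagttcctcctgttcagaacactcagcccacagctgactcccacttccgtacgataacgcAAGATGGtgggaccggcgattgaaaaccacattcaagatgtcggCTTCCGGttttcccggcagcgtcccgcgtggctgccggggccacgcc
Mrpl45 had nearly equal values in both libraries and has 2 NRF1 matches in the 250 bases at chr11:97315466-97315715 on the plus strand.
Mrpl45: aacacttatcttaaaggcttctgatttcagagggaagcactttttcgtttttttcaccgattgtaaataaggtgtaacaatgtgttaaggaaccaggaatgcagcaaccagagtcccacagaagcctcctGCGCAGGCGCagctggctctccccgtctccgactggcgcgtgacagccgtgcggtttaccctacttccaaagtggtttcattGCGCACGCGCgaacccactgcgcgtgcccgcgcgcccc
Mrps12 shares its upstream region with Sars2, the mitochondrial seryl-tRNA synthetase gene, and the 170 bases between them are at chr7:28741822-28741991 on the minus strand.
Mrps12: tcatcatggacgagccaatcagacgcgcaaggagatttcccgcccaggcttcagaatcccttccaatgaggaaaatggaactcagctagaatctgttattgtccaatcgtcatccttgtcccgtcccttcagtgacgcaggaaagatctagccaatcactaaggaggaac
Mrpl46 and Mrps11 are both members and start 42 bases apart in opposite directions, with 29 bases free of annotated exons at chr7:78783090-78783118 on the minus strand.
Mrpl46: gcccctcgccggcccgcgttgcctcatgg
The stretches of Mrpl2, Mrps12 and Mrpl46 held none of the 3 motifs, which says only that these letters are not in these stretches. The windows counted further on are longer, and that of Mrps12 held an ETS and a YY1 match outside the printed stretch.

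Transcripts of the mitochondrial ribosome were of low abundance in both libraries. Their FPKM ranged from a listed 0 to 33.3 in wild type and from 0.0625 to 30.6 in Epc-dKO, and 70 of the 76 genes were under 10 in both. The median over all members was 2.59 in wild type and 2.04 in Epc-dKO. Together the members summed to 320.1 FPKM in wild type and 263.7 in Epc-dKO, which is 0.165% and 0.133% of each library's total. The minimum left 67 members expressed, 41 of the large subunit and 26 of the small subunit. Among the expressed members the median was 2.87 in wild type, below the median of 5.21 over all expressed genes. These proteins are assembled into 1 particle, yet the highest wild-type FPKM among expressed members was 33.6 times the lowest.

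**Figure D1:**
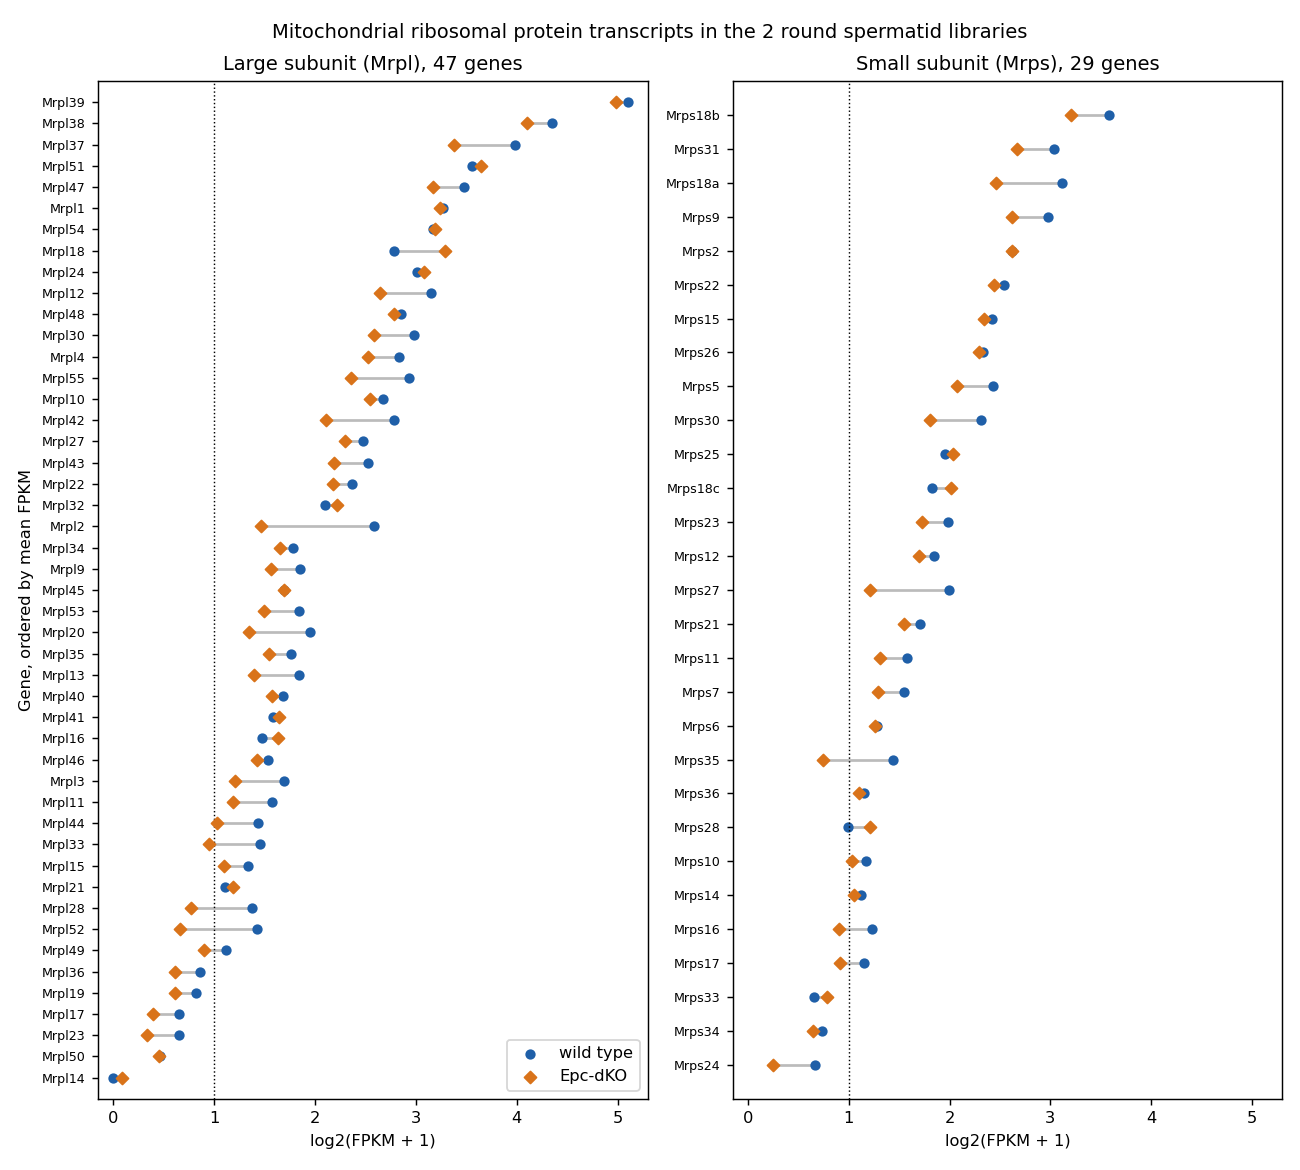
FPKM of all 76 mitochondrial ribosomal protein genes, plotted as log2(FPKM + 1) on the horizontal axis, with a blue circle for the wild-type library and an orange diamond for the library labelled Epc-dKO. Genes are ordered by mean FPKM within the large (47 genes, left) and small (29 genes, right) subunit, and the dotted line is at an FPKM of 1. In most rows the diamond lies left of the circle, and Mrpl2 has the widest gap at 5.01 against 1.75.

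A small number of large subunit genes stood above the rest. Mrpl39, whose product sits near the exit of the peptide tunnel, had an FPKM of 33.3 in wild type and 30.6 in Epc-dKO. Mrpl38, of the central protuberance, had 19.5 and 16.2. Mrpl37, found only in mitochondrial ribosomes, had 14.8 and 9.43. These 3 genes made up 21.1% of the summed FPKM of all members in wild type and 21.3% in Epc-dKO. Mrpl51 followed with 10.8 and 11.5, and Mrpl47 with 10.1 and 8.01. Of the small subunit genes only Mrps18b exceeded 10 FPKM, with 10.9 in wild type and 8.20 in Epc-dKO. The order of levels was much the same in both libraries, with Pearson's r of 0.949 over the log2(FPKM + 1) values of the 67 expressed members. Genes are not independent replicates, and this r is a description of these libraries.

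Estimated fragment numbers show what supports these values. An expressed member rested on about 11 to 2527 fragments in wild type, with a median of 147. The counting error of a log2 ratio without the added 1 was between 0.04 and 0.84, with a median of 0.19. It covers counting alone and leaves out the spread between animals, which these data do not measure. The numbers are approximate, since they rest on the assumption that the smallest step is 1 fragment and use the longest RefSeq-linked transcript of GENCODE M21 for each gene.

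Of the 67 expressed members, 1 fell and 0 rose by the 2-fold rule. Over all 10438 expressed genes 1.88% fell and 2.75% rose, 196 against 287 genes. These counts depend on the added 1 and on the minimum. With 0.1 added in its place 5 of 67 members were 2-fold lower, and all genes split into 652 lower (6.25%) and 433 higher (4.15%). On the TPM scale larger values shrink the weight of the added 1, and 15151 genes passed the minimum, 75 of them members. There 6 members were lower, and all genes split into 1054 lower (6.96%) and 545 higher (3.6%). At a minimum mean FPKM of 5, 0 of 20 members were lower, beside 1.97% of all genes. A smaller shift ran through most of the members: 54 of the 67 had a log2 ratio below 0 (80.6%), whereas 54.4% of all expressed genes did. The members' median was -0.24 on the log2 scale, and their quartiles were -0.39 and -0.06, against a median of -0.05 over all expressed genes. Without the added 1, the median member was at 0.790 times its wild-type FPKM. At 1.5-fold, 9 members were lower and 0 were higher, beside 10.8% lower and 8.02% higher among all expressed genes. The share of members past 2-fold or past 1.5-fold lower was thus near the share among all genes, and what set the members apart in count was the small number of ratios above 0. Of the remaining 58 expressed members, 37 lay between 1.5-fold lower and a ratio of -0.1, 16 lay within 0.1 of 0, and 5 lay above 0.1.

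**Figure D2:**
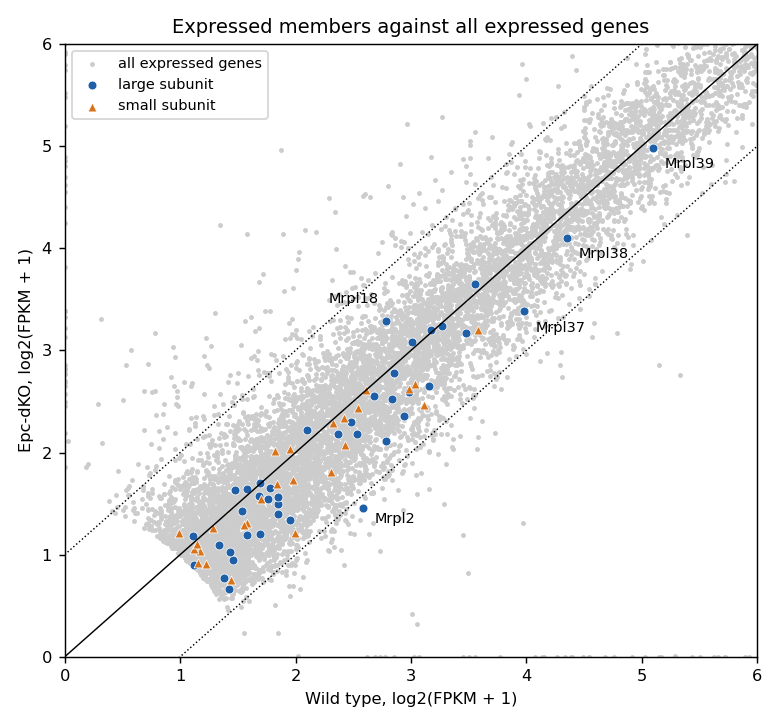
Expression of 67 expressed members (blue circles, large subunit; orange triangles, small subunit) and of all 10438 expressed genes (grey), as log2(FPKM + 1) in wild type on the horizontal axis and in Epc-dKO on the vertical axis, shown up to 6. The solid line is equality and the dotted lines are 2-fold. The members lie mostly below equality and inside the dotted lines, with Mrpl2 outside at a log2 ratio of -1.13 and Mrpl18 farthest above at 0.50.

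Sorted by symbol, the 41 expressed large subunit genes had a median log2 ratio of -0.24, and 32 of them were below 0. The 26 expressed small subunit genes had a median of -0.20, and 22 were below 0. This sorting puts Mrps18a and Mrps30, whose proteins are found in the large subunit, and Mrps36, assigned to another complex, with the small subunit. Sorted by the place of the protein instead, a choice made after seeing the data, the medians were -0.25 over 43 large subunit genes and -0.16 over 23 small subunit genes. The order of the subunits was not stable: at a minimum mean FPKM of 5 the medians by symbol were -0.13 for the large and -0.37 for the small subunit. That minimum left 20 members in all, fewer of the small than of the large subunit. The small group by symbol still held Mrps18a, at -0.65. By origin, 42 expressed genes with a bacterial homolog had a median of -0.24, and 24 expressed genes found only in mitochondrial ribosomes had -0.24. The change in summed FPKM was -16.6% for the large and -20.1% for the small subunit by symbol, and -17.7% and -17.4% by the place of the protein.

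The shift was present among short and long transcripts. Members with transcripts up to 1000 nt had a median log2 ratio of -0.17 over 20 genes, beside -0.10 over 985 expressed genes of that length. Those above that and up to 2000 nt had -0.27 over 28 genes, beside -0.09 over 1989 genes. Those over 2000 nt had -0.12 over 19 genes, beside -0.03 over 6337 genes. By level, the 21 members with a mean FPKM from 1 to 2 had a median of -0.24, where all genes of that level had -0.16. The 20 members at 5 or more had -0.28, where all genes had 0.02. Low genes as a whole were thus shifted downward in the library labelled Epc-dKO and abundant genes were not. The distance between members and all genes was widest in the class at 5 or more. Within that class it did not grow steadily with level. In order of mean FPKM, the most abundant members were Mrpl39 (-0.12), Mrpl38 (-0.25), Mrpl37 (-0.60), Mrpl51 (0.09) and Mrps18b (-0.38). Next came Mrpl47 (-0.31), Mrpl1 (-0.03), Mrpl54 (0.02), Mrpl18 (0.50) and Mrpl24 (0.07).

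Proteins around the catalytic centre of the large subunit included the single gene that fell. Mrpl2, which encodes a core protein at the peptidyl transferase centre, fell from an FPKM of 5.01 in wild type to 1.75 in Epc-dKO, a log2 ratio of -1.13. Without the added 1 its level in Epc-dKO was 0.350 times that in wild type, from about 147 and 57 fragments, with a counting error of 0.23 on a log2 ratio of -1.51. Mrpl3, another core protein gene, had 2.24 and 1.31 (log2 ratio -0.49), and Mrpl4 had 6.13 and 4.77 (-0.30). Mrpl16, which lies near the binding site of incoming tRNA, had 1.79 and 2.10 (0.15), so this group held values on both sides of 0.

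Genes of the stalk, the flexible arm that recruits translation factors, were mostly lower. Mrpl12, the stalk protein that also binds the mitochondrial RNA polymerase, had an FPKM of 7.89 in wild type and 5.28 in Epc-dKO, a log2 ratio of -0.50. Mrpl11, at the base of the stalk, had 1.98 and 1.28 (-0.39). Mrpl53 had 2.59 and 1.82 (-0.35), and Mrpl10, which anchors Mrpl12, had 5.41 and 4.85 (-0.13). Mrpl54 had nearly equal values of 8.03 and 8.16. None of the 5 passed the 2-fold rule, and their median was -0.35.

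Genes of the peptide exit tunnel, which guides the growing chain to the inner membrane, had 6 of 8 members expressed and a median of -0.15. Mrpl45, which links the ribosome to the membrane, had 2.23 in wild type and 2.24 in Epc-dKO. Mrpl44 had 1.70 and 1.04 (log2 ratio -0.41), Mrpl22 had 4.15 and 3.53 (-0.18), and Mrpl24 had 7.06 and 7.44 (0.07). Mrpl39 and Mrpl47 had log2 ratios of -0.12 and -0.31. The other 2, Mrpl17 and Mrpl23, were below the minimum, with 0.572 and 0.571 in wild type. The L1 arm, which releases spent tRNA, was represented by Mrpl1 with 8.64 and 8.46 and by Mrpl9 with 2.61 and 1.96 (-0.29).

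The central protuberance, which contacts the small subunit, contained the member with the highest ratio. Mrpl18 had an FPKM of 5.90 in wild type and 8.77 in Epc-dKO, a log2 ratio of 0.50. Without the added 1, Mrpl18 was at 1.49 times its wild-type level, from about 214 and 351 fragments. The next highest expressed member was Mrps28, with a log2 ratio of 0.22. The other 5 genes of this group were close together below 0. Mrpl38 had a log2 ratio of -0.25, Mrpl27 had -0.19, Mrpl40 and Mrpl46 each had -0.11, and Mrpl48, with 6.21 and 5.87, had -0.07.

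**Figure D3:**
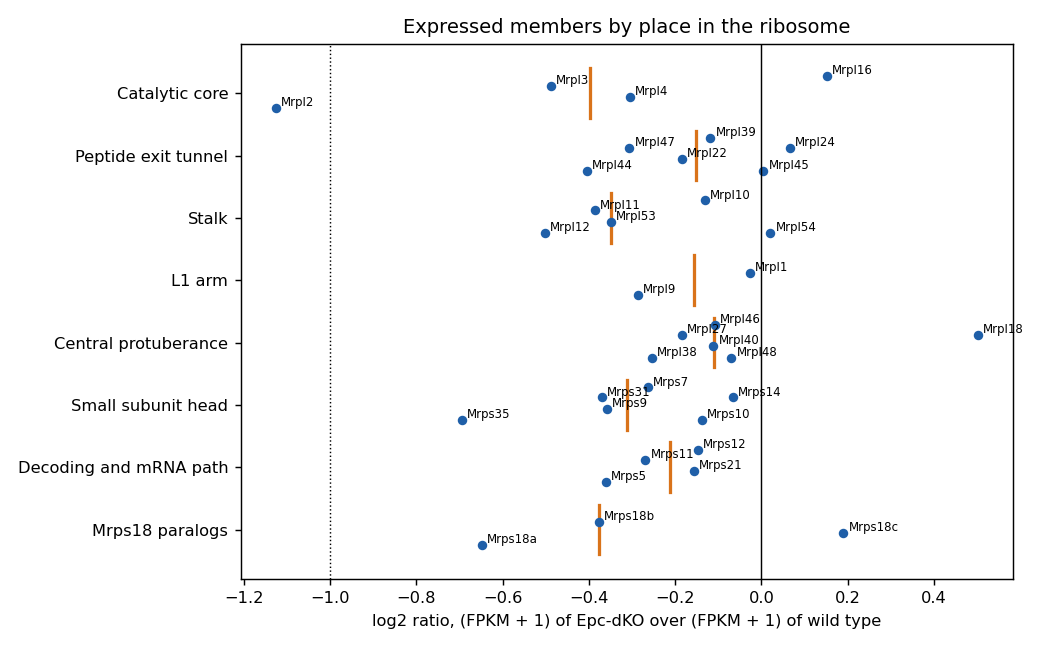
Log2 ratio of (FPKM + 1) in Epc-dKO over wild type for expressed members, grouped by their place in the ribosome; each blue point is 1 gene and the orange bar is the median of its group. Vertical lines mark 0 (solid) and 2-fold lower (dotted). Mrpl2 in the catalytic core lies at -1.13, Mrpl18 in the central protuberance at 0.50, and the medians range from -0.40 to -0.11.

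In the small subunit, all 6 expressed genes of the head had a log2 ratio below 0. Mrps35 had an FPKM of 1.72 in wild type and 0.679 in Epc-dKO, a log2 ratio of -0.70. Without the added 1 it was 0.395 times its wild-type level, from about 249 and 109 fragments. Those numbers assume a length of 4162 nt for a gene with 5 annotated transcripts, and would be smaller for a shorter transcript. Mrps31 had 7.21 and 5.35 (-0.37), Mrps9 had 6.88 and 5.15 (-0.36), and Mrps7 had 1.93 and 1.44 (-0.26). Mrps10 and Mrps14 had -0.14 and -0.07. Below the minimum, Mrps24 had 0.590 and 0.193, while Mrps33 had 0.573 and 0.721.

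The 4 genes grouped for decoding and the mRNA path were also below 0 and close to each other. Mrps12, which monitors codon and anticodon pairing in the decoding centre, had 2.59 in wild type and 2.24 in Epc-dKO (log2 ratio -0.15). Mrps5, near the entrance of the mRNA channel, had 4.39 and 3.20 (-0.36). Mrps11 had 1.99 and 1.48 (-0.27) and Mrps21 had 2.26 and 1.92 (-0.16).

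The Mrps18 paralogs are related proteins that occupy different places in the ribosome, and they differed in direction. Mrps18a, whose product is found in the large subunit despite its name, had an FPKM of 7.64 in wild type and 4.51 in Epc-dKO, a log2 ratio of -0.65. Mrps18b had 10.9 and 8.20 (-0.38). Mrps18c, the counterpart of the bacterial protein in the small subunit, had 2.53 and 3.03 (0.19), with a counting error of 0.31 on the ratio without the added 1. Mrps30, also found in the large subunit despite its name, had 3.95 and 2.50 (-0.50). Mrps36, which has been assigned to the oxoglutarate dehydrogenase complex rather than to the ribosome, had 1.21 and 1.15 (-0.04).

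Among the small subunit genes outside these groups, Mrps27 was lowest. Its product binds RNA and is found only in mitochondrial ribosomes. It had an FPKM of 2.99 in wild type and 1.32 in Epc-dKO, a log2 ratio of -0.78, or 0.443 times without the added 1, from about 178 and 87 fragments. Mrps2 had 5.12 and 5.13, Mrps22 had 4.80 and 4.42 (-0.10) and Mrps26 had 4.02 and 3.90 (-0.04). Mrps28 had 0.989 and 1.32, the highest ratio of the subunit at 0.22, from about 20 and 30 fragments. Over the 13 expressed genes outside the groups, 10 ratios were below 0 and the median was -0.08.

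Of the large subunit genes outside the named groups, 18 were expressed, with a median log2 ratio of -0.37 and 14 below 0. Mrpl52 had 1.68 in wild type and 0.587 in Epc-dKO, a log2 ratio of -0.76. This was the thinnest value among the expressed members, about 11 and 4 fragments, with a counting error of 0.84 on the ratio without the added 1. Mrpl42 had 5.90 and 3.33 (-0.67), Mrpl20 had 2.87 and 1.54 (-0.61) and Mrpl28 had 1.60 and 0.709 (-0.60). Mrpl37 had a log2 ratio of -0.60 from about 689 and 485 fragments, while the more abundant Mrpl39 and Mrpl38 had -0.12 and -0.25. Mrpl55, named after its values were seen, had 6.65 and 4.11 (-0.58). On the other side, Mrpl51 had a log2 ratio of 0.09, Mrpl21 had 0.07 and Mrpl32, with 3.28 and 3.66, had 0.12.

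In all, 9 members were below the minimum and had a mean FPKM under 1. They are Mrpl14, Mrpl17, Mrpl19, Mrpl23, Mrpl36, Mrpl50, Mrps24, Mrps33 and Mrps34, the last and Mrpl14 and Mrpl50 being named after their values were seen. Just under the minimum, Mrpl36 had 0.812 in wild type and 0.525 in Epc-dKO. Just above it, Mrpl49 had 1.17 and 0.869. Mrpl14 was listed at 0 in wild type and had 0.0625 in Epc-dKO, the value of about 1 fragment, so no ratio is given.

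The other genes of mitochondrial translation were grouped in lists by function and went several ways. Of the ribosomal proteins with other names, 4 of 7 were expressed and none passed the 2-fold rule. Dap3, a GTP-binding protein of the small subunit, had 12.9 in wild type and 12.1 in Epc-dKO, and Ptcd3, which binds messenger RNA at the small subunit, had 3.05 and 3.87 (log2 ratio 0.27). Of the translation factors, 9 of 14 measured were expressed, none passed the rule, and the median was -0.14. The elongation factor gene Tufm had 11.1 and 7.96 (-0.44) and Gfm1, another elongation factor gene, had 7.24 and 4.73 (-0.52). Mrrf, for the ribosome recycling factor, had 4.15 and 7.10 (0.65).

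Genes that load amino acids onto mitochondrial tRNA were all below 0: 15 of 15 expressed, of 22 measured, with a median log2 ratio of -0.38. Aars2, the alanyl-tRNA synthetase gene, fell from 11.3 to 3.96, the only 2-fold difference in this list. Fars2, the most abundant, had 31.8 and 26.9. Kars serves both the cytosol and mitochondria and had 25.3 and 19.2. Ribosome assembly genes had a median of -0.07 over 16 expressed of 26, but 0.25 at a minimum mean FPKM of 5 and -0.33 on the TPM scale, so no direction is read from it. Dhx30, an RNA helicase gene of this list, had 81.8 and 67.2, and Mterfd1, of the MTERF family, had 2.51 and 4.30 (0.59). Genes for transcription, replication and RNA processing of the mitochondrial genome had a median of -0.03 over 15 expressed of 20, which was -0.40 at a minimum of 5 and -0.13 on the TPM scale. Among these Polrmt, the mitochondrial RNA polymerase, had 7.30 and 3.99 (-0.73) and Elac2, which trims tRNA ends, had 12.3 and 6.41 (-0.84), and none of this list passed the rule.

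Regulators of mitochondrial gene expression had 7 of 11 measured genes expressed and a median of -0.24. Pprc1, a coactivator of the PGC-1 family, fell from 6.40 to 2.11 (-1.25). Yy1 had 4.66 and 3.79 (-0.24). Gabpb1, a subunit of the ETS factor GABP, had 1.49 and 3.01 (0.69). Nrf1, named after its values were seen, had a log2 ratio of -0.11. In the list of protein import and quality control, 26 of 32 were expressed, with a median of -0.21 and 1 gene that fell, Timm17b of the inner membrane translocase, from 10.8 to 4.89.

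Like the members, the nearest gene families had medians below 0. The cytosolic ribosome had 73 of 79 genes expressed and a median log2 ratio of -0.40, with 64 below 0 (87.7%) and 2 that fell. Nuclear-encoded oxidative phosphorylation genes, most of whose products work with the proteins that mitochondrial ribosomes make, were taken by symbol. They had 75 of 85 expressed and a median of -0.31, with 60 below 0 (80.0%) and 1, Ndufb7, that fell. The symbol rule also takes in Cox4nb, Atp5s and Atp5sl, which resemble subunit genes by name. Without the added 1 the medians were -0.34 for the members, -0.36 for oxidative phosphorylation and -0.45 for the cytosolic ribosome. The change in summed FPKM was -17.6%, -15.3% and -23.7% in the same order. The members thus stood close to oxidative phosphorylation genes on these measures, and with 1 library per genotype the differences between families were not tested. The median level of mitochondrial ribosomal protein genes in wild type, 2.59, was lower than that of the cytosolic ribosome, 14.2, and of oxidative phosphorylation genes, 6.36.

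**Figure D4:**
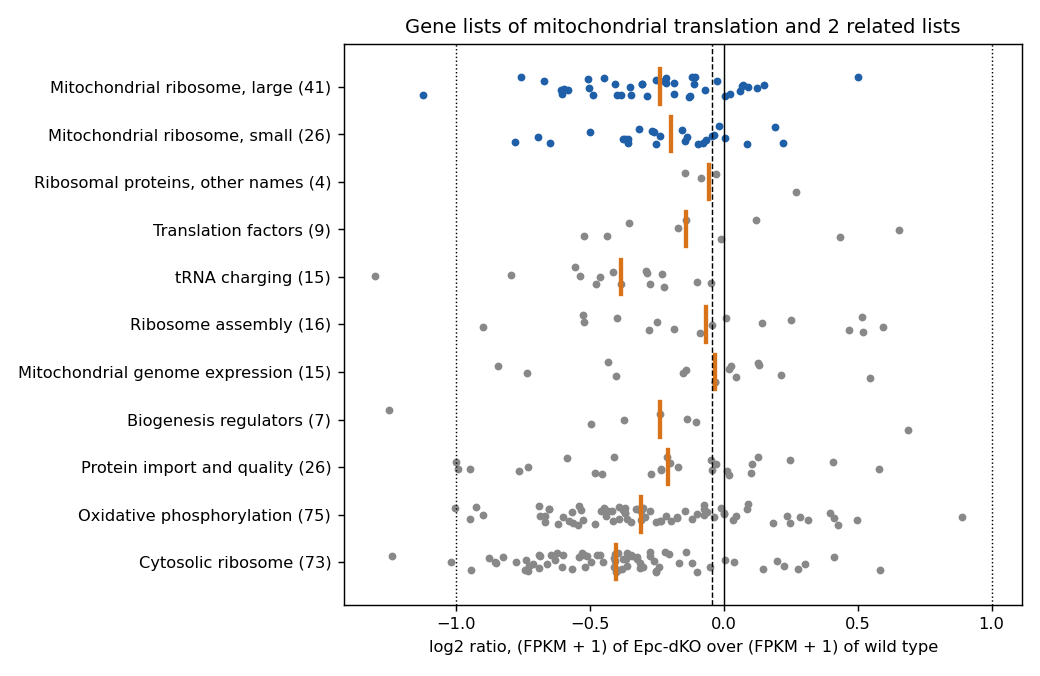
Log2 ratio of (FPKM + 1) in Epc-dKO over wild type for expressed genes of the mitochondrial ribosome (blue), of other lists of mitochondrial gene expression and of 2 related families (grey), with the number of genes in parentheses; each point is 1 gene, spread vertically for clarity. Orange bars are medians, the dashed line is the median of all expressed genes at -0.05, and dotted lines are 2-fold. The tRNA charging list and the cytosolic ribosome have the lowest medians, -0.38 and -0.40.

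Markers of several other testis cells had medians on the same side of 0. Of 20 listed spermatogonial genes 14 were expressed, 13 of these were below 0, and the median log2 ratio was -0.74. Their summed FPKM was 159.0 in wild type and 148.0 in Epc-dKO, most of it from Ddx4 at 109.6 and 124.9, which later germ cells also express. Among the others Dmrt1 fell from 7.49 to 2.47 and Crabp1 from 3.77 to 1.27. The summed Sertoli markers were 17.5 and 10.2 (3 of 13 expressed, all below 0), with Fshr listed at 0 in wild type. The Leydig markers summed to 34.4 and 26.3 (5 of 8 expressed below 0), of which Insl3, which fell, gave 14.9 and 6.79. The peritubular markers summed to 27.3 and 43.0 (3 of 4 expressed below 0), of which Actg2, which rose, gave 15.3 and 36.2. Spermatocyte markers had a median of -0.02 over 14 expressed genes. Round spermatid markers lay on the other side, with a median of 0.17, 16 of 20 above 0 and 4 that rose. Mitochondrial ribosomal protein genes are transcribed in all these cells, and the part of the marker shift in the members' values was not tested. In such bulk libraries fewer cells of a type and less RNA per cell cannot be told apart.

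Promoter windows from 250 bases before to 50 after the start were found for 67 of the 76 members (73 windows). An ETS motif was present in 24 windows (32.9%), an NRF1 motif in 13 (17.8%) and a YY1 motif in 13 (17.8%). Over all 32851 RefSeq promoter windows the shares were 8.86%, 6.23% and 6.34%, and over those of genes expressed here they were 17.9%, 13.6% and 7.58%. The shares in cytosolic ribosomal protein promoters were 34.3%, 10.4% and 17.9%, and in oxidative phosphorylation promoters 22.5%, 26.8% and 14.1%. A window of several starts of 1 gene counts once for each start. Expressed members were split by motif, and the median log2 ratios were -0.18 over 22 genes with an ETS motif and -0.23 over 38 without, -0.29 over 11 with an NRF1 motif and -0.22 over 49 without, and -0.27 over 11 with a YY1 motif and -0.16 over 49 without. A match is a description of the sequence and not a bound site.

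Many members start close to another gene on the opposite strand. In GENCODE M21, 17 of the 76 (22.4%) had a coding gene that started within 1000 nt upstream and ran away from them, compared with 11.4% of expressed coding genes. Both genes were expressed in 13 pairs. In these pairs 8 members and 9 neighbours had a log2 ratio below 0, and both did in 5. Klc4, a kinesin light chain gene that starts 207 nt from Mrpl2, had an FPKM of 6.57 in wild type and 6.71 in Epc-dKO, while Mrpl2 fell. Sars2, which starts 172 nt from Mrps12, had 5.42 and 2.71 (-0.79), while Mrps12 had -0.15. Ptcd2, beside Mrps27, had 3.01 and 2.44 (-0.22). Mrpl46 and Mrps11, which share the short upstream stretch printed above, had log2 ratios of -0.11 and -0.27. They were paired by their RefSeq starts, 42 bases apart. The GENCODE starts did not pair them, so they are not among the 17 members or the 13 pairs. Klc4 and Ptcd2 were named after their values were seen.

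**Figure D5:**
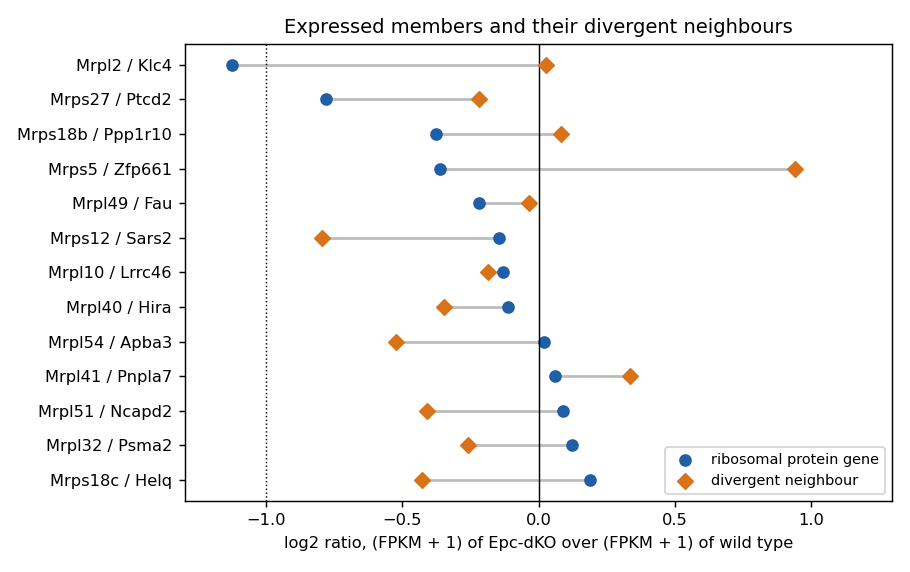
Log2 ratio of (FPKM + 1) in Epc-dKO over wild type for 13 expressed members (blue circles) and the coding gene that starts within 1000 nt upstream on the opposite strand (orange diamonds), ordered by the ratio of the member. Vertical lines mark 0 (solid) and 2-fold lower (dotted). Mrpl2 lies at -1.13 and its neighbour Klc4 at 0.03, and both genes lie below 0 in 5 of the 13 pairs.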

How the data were processed

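RNA-seq of round spermatids was analysed from 1 table of FPKM values deposited by the authors, 1 column for each genotype. Cufflinks 2.2.1 and the build mm9 are named per the submitters' processing notes. Aligner, annotation, strand setting and scaling were not given in the sources used here. Per the labels' protocols, libraries were directional and PCR-amplified; duplicates could not be assessed. A single row named no gene and was left out. Samples were grouped by their genotype labels. Ratios used a pseudocount of 1, a minimum mean FPKM of 1 and a 2-fold rule; no test was possible. FPKM depends on the mapped total, and abundant transcripts can shift all other values; paralogs and pseudogenes can share reads.

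Depth was estimated from genes whose FPKM ratio repeats, and the total from 65 of these with 1 annotated transcript, by regression of 1/FPKM on length (fitted length correction 234 nt). Lengths came by symbol from GENCODE M21 (GRCm38) for 89.2% of expressed genes and all 76 members.

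The members, lists and named-gene rule were chosen with earlier results of these data known. The rule named Epc1 and Epc2, members past 2-fold, in each subunit the 6 most abundant, 6 highest and 6 lowest ratios, those nearest the minimum, those assigned a place in the ribosome, and in each other list the 2 most abundant and 2 most changed genes. Scoring was tested on simulated data, which checks the arithmetic of the calls only. No rate of missed changes is read from it for low genes, whose change the added 1 understates. Most members are low, with 70 under 10 FPKM in both libraries. Scripts ran under Python 3.11.15 with pandas 2.3.3 and NumPy 2.4.6, and plots were drawn with Matplotlib 3.10.9. Alternatives were other pseudocounts, minimums, scalings and fold rules.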

Additional observations from a re-analysis of the deposited data

How the results depend on the processing

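The members' median log2 ratio stayed below that of all genes under every alternative for which both were computed, and it ranged from -0.20 with the libraries scaled to a median ratio of 1 to -0.37 on the TPM scale, on which 15151 genes passed the minimum. Without a pseudocount, an alternative chosen after seeing the data, it was -0.34, with large and small subunits at -0.34 and -0.30. The large subunit stood at -0.39 on the TPM scale. The number of members that were 2-fold lower was 5 with a pseudocount of 0.1, 2 with 0.5, 6 on the TPM scale and 5 without a pseudocount, where 6.25%, 3.49%, 6.96% and 6.84% of all genes were. It was 9 under the 1.5-fold rule and 0 with a minimum mean FPKM of 5, where 10.8% and 1.97% of all genes were. That minimum left 20 members, 15 of them below 0, with subunit medians of -0.13 and -0.37. No member was higher under any setting for which this was counted. With the libraries scaled to a median ratio of 1 the genome expression median was 0.01. With 50 or more estimated fragments in both libraries, also chosen after seeing the data, 43 of 52 members were below 0. At the minimum of 5, translation factors stood at -0.40, ribosome assembly at 0.25, above 0, and genome expression at -0.40. On the TPM scale ribosomal proteins with other names stood at -0.20, translation factors at -0.32, ribosome assembly at -0.33 and genome expression at -0.13. Without a minimum the biogenesis regulators stood at -0.14. A changed minimum or scale also changes which genes are included; other causes were not tested. Of 819 recomputed ratios of single named genes, 647 moved by 0.1 or less and 172 moved by more. Sign was compared only for genes past 2-fold in the main setting, of which 0 changed. A changed pseudocount cannot change a sign, and genes near 0 were left out, so no stability of direction is read from this. No paired analysis was possible because there is only 1 library on each side, so none could be left out in turn either.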
